A study of Mus musculus with 6 samples.

Results

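The genes described here encode the JAK kinases, STAT transcription factors and SOCS feedback inhibitors of cytokine signaling. They are the 10 genes *Jak1*, *Jak3*, *Stat3*, *Stat5a*, *Stat5b*, *Stat6*, *Socs1*, *Socs2*, *Socs3* and *Cish*, chosen by symbol from the 48397 genes of the count table, where all 10 are present. RNA-Seq was performed on stage 0 iNKT cells, the earliest invariant natural killer T cell progenitors after positive selection in the thymus. Cells that bound the PBS57-CD1d tetramer, carried CD24 and CD69, lacked CD44 and CD8 and had little or no CD4 were sorted from mice 8 to 10 weeks old. There were 3 libraries from wild-type BALB/c mice and 3 from SKG mice. SKG mice carry a hypomorphic mutation of *Zap70*, the proximal kinase of the T-cell receptor (TCR), on the BALB/c background in every cell that expresses it. Each library came from the thymi of 3 mice, pooled, with about 1000 cells, and the p-values therefore measure the spread between pools rather than single animals. The comparison asks whether weaker TCR signaling goes with other levels of the cytokine signaling machinery at this stage.

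Cytokine receptors of this class have no enzymatic activity and rely on JAK kinases bound to their intracellular tails. After cytokine binding the JAKs phosphorylate the receptor, STAT proteins dock and are phosphorylated in turn, and STAT dimers enter the nucleus to activate genes. Among these genes are *Socs* genes and *Cish*, whose products block the receptor or the JAK and so close a feedback loop. In T-lineage cells JAK1 and JAK3 serve the receptors that share the common gamma chain, STAT5A and STAT5B act for IL-2, IL-7 and IL-15, STAT6 for IL-4, and STAT3 for IL-6, IL-10 and IL-21.

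Reads per library numbered from 37176544 to 43115544, and from 10835 to 14791 genes had at least 10 reads. Levels are given as CPM, the reads of a gene relative to the TMM-adjusted total of its library. The summed level of 9 T-cell receptor and stage 0 markers lay between 8090 and 10040 CPM in all libraries, but single markers varied. *Cd24a*, whose product was used in the sort, was at 52.4, 7.31 and 15.6 CPM in BALB/c and at 31.9, 88.6 and 90.7 CPM in SKG. *Cd69* and *Egr2*, both induced by TCR signals, were lower in all SKG libraries by log2 fold changes of -0.87 and -0.80, and *Slamf6* was higher in all of them by 0.34 (edgeR adjusted p = 0.686, 0.834 and 0.869). *Zap70* mRNA, which does not report on the SKG mutation, was at 374 to 498 CPM in BALB/c and at 322 to 409 CPM in SKG. Summed, 9 NK cell and mature iNKT1 cell markers were at 13.9 to 21.5 CPM in BALB/c and 1.34 to 7.24 CPM in SKG. Of these, *Ncr1*, *Tbx21* and *Gzmb* had 0 reads in all 6 libraries. Only *Nkg7* was without overlap, at 8.78, 11.5 and 14.9 CPM in BALB/c and 1.27, 0 and 3.10 CPM in SKG. The part of these markers in the results below was not tested. Sums of double-positive thymocyte markers overlapped between the genotypes, at 71.3 to 467 CPM in BALB/c and 88.6 to 242 CPM in SKG, and so did those of the B cell, myeloid, erythroid and thymic epithelial lists. In sorted bulk cells, fewer cells expressing a gene and less RNA per cell cannot be told apart.

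*Stat5a* and *Stat5b* are shown in sequence because they are neighboring paralogs whose reads can be confused. On GRCm38 *Stat5b* lies on chromosome 11 from 100780731 to 100850724, *Stat5a* from 100859351 to 100885169 and *Stat3* from 100885098 to 100939540, so that *Stat5a* and *Stat3* overlap by 72 exonic bases on opposite strands. The coding sequences of *Stat5a* and *Stat5b* in the GENCODE transcripts share an identical run of 324 bases, from base 571 to base 894 of both, which spans exons 7 to 9 of *Stat5a* and exons 6 to 8 of *Stat5b*. The stretch from coding base 511 to 660 shows the start of that run, with capitals at the 1 base that differs between the genes. In *Stat5a* this stretch lies on the plus strand at chr11:100865466-100865505 and chr11:100874003-100874112, and in *Stat5b* on the minus strand at chr11:100801407-100801446 and chr11:100798612-100798721.
*Stat5a*: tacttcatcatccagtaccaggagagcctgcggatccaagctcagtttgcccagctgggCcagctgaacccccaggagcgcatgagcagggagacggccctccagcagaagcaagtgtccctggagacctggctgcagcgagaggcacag
*Stat5b*: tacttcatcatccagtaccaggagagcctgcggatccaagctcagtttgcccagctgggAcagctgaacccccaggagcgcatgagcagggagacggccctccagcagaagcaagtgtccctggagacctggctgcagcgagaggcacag
Of the distinct 50-base words in the transcripts, the length of a read, 631 of 7407 in *Stat5a* (8.52%) and 608 of 5535 in *Stat5b* (11.0%) also occur in another gene. A read from a word that occurs at several genomic positions has no single best position and falls short of the mapping quality of 10 that the authors required. The counts of both genes therefore rest on the remainder of each transcript. The shared share was 7.21% in *Jak3*, which overlaps *Insl3* on the same strand, 9.35% in *Cish*, which overlaps *Gm17040* and *Gm17041* on the opposite strand, 4.58% in *Socs2* and 0.555% in *Stat3*. In *Jak3* 355 of the 392 shared words occur in *Insl3*, and in *Cish* 386 of 613 in *Gm17041*. Words shared by overlapping genes can lie at a single genomic position, so the mapping quality need not remove their reads. *Jak1*, *Stat6*, *Socs1* and *Socs3* had 0 shared words.

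Of the 10 genes, 7 were expressed above the filter on low counts and were tested, namely *Jak1*, *Jak3*, *Stat3*, *Stat5a*, *Stat5b*, *Stat6* and *Socs1*. *Socs2*, *Socs3* and *Cish* were below it. All 7 tested genes had a fitted fold change above 0, that is, a higher level in SKG, with a median log2 fold change of 0.40, whereas the median over the 12312 genes tested was -0.02 and 49% of them were above 0. EdgeR's quasi-likelihood test (FDR below 0.1 with a change of 1.5-fold or more) called 0 of the 7 and 0% of all genes. The unadjusted p was under 0.05 in 2 of the 7, *Jak1* and *Stat5a*, as in 5.45% of all genes, 3.07% with the higher level in SKG and 2.38% with the higher level in BALB/c. DESeq2 gave an adjusted p to 14365 genes and to 8 of the members, *Socs2* among them. Of these 8 it called 2 without shrinkage, against 2.58% of its genes, and 1 with shrunken fold changes, against 1.59%. In 4 of the 7 each SKG library was above each BALB/c library, an arrangement found in 6.77% of all genes tested. The opposite arrangement was found in 7.12% of all genes and in 0 of the members, and 13.9% of all genes had either. These shares over all genes were not matched to the level of the members. By CPM the 7 lay above 75.3% (*Socs1*) to 99.0% (*Jak1*) of the genes tested. The genes of the list are expressed in the same 6 libraries and are not independent of each other. The list was also chosen with earlier results of these data known, so these counts are only described.

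**Figure D1:**
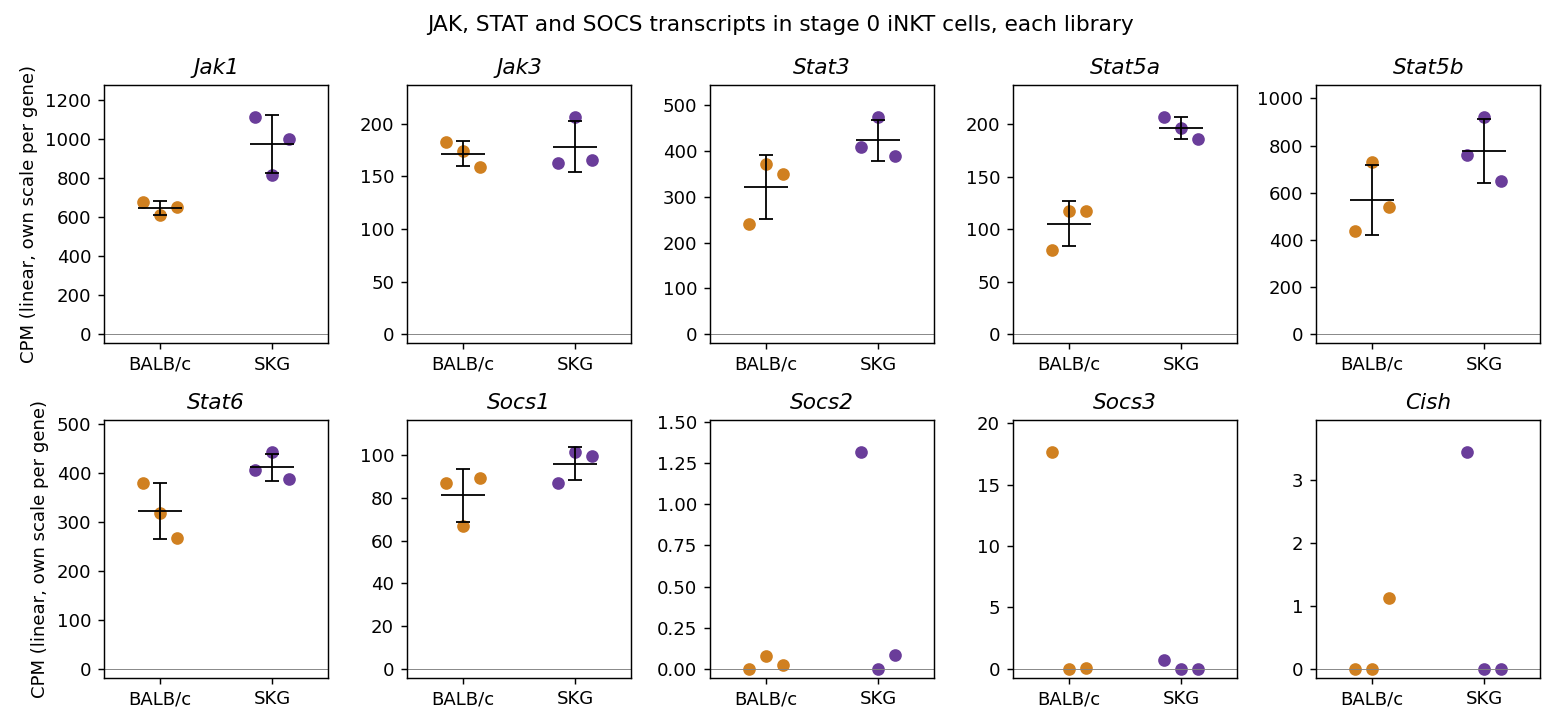
Level of each of the 10 genes in CPM (linear axis, own scale per gene) in the 3 BALB/c and 3 SKG libraries. Points are libraries and, for the 7 tested genes, bars give the mean and SD; in *Jak1*, *Stat3*, *Stat5a* and *Stat6* the SKG points lie above all BALB/c points, and *Socs2*, *Socs3* and *Cish* each have most of their reads in 1 or 2 libraries.

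*Jak1*, the kinase that most receptors of this class use, is encoded on chromosome 4 (GRCm38, 101152367 to 101265282, minus strand). It was at 677, 609 and 652 CPM in the BALB/c replicates 1 to 3 and at 1109, 814 and 997 CPM in the SKG replicates 1 to 3. All SKG libraries were above all BALB/c libraries, and the BALB/c libraries differed little, with a coefficient of variation of 5.32%. For comparison, the median of this coefficient over the 4744 tested genes with a mean of at least 50 CPM was 22.1% in BALB/c. The means were 646 ± 34.4 CPM and 973 ± 149 CPM (SD, n = 3 libraries each). The fitted level was 1.51-fold higher in SKG, which is 0.59 on the log2 scale (standard error 0.15, 95% interval 0.23 to 0.95, edgeR adjusted p = 0.686). DESeq2 called it without shrinkage (adjusted p = 0.0976) and not with it (adjusted p = 0.138).

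*Jak3*, the kinase bound to the common gamma chain, lies on chromosome 8 from 71676296 to 71690575 and was nearly equal in the genotypes. It was at 182, 174 and 159 CPM in BALB/c and at 162, 206 and 166 CPM in SKG. The groups overlapped, with SKG replicate 2 above all BALB/c libraries, and the log2 fold change of 0.05 had a 95% interval from -0.35 to 0.45 (edgeR adjusted p = 0.991), turning to -0.055 without SKG replicate 2. The ratio of *Jak1* to *Jak3*, per length, was 2.75, 2.60 and 3.05 in BALB/c and 5.06, 2.93 and 4.45 in SKG. SKG replicate 2 lay within the BALB/c range. This ratio and those of *Stat5a* to *Stat5b* and *Jak1* to *Socs1* each had a two-sided p of 0.2 in an exact permutation test. With 3 against 3 libraries that test cannot give a p below 0.1, so the ratios are only described.

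*Stat5a*, a transducer of IL-2, IL-7 and IL-15 signals, had the largest fold change of the 7. It was at 80.3, 118 and 117 CPM in BALB/c and at 206, 196 and 186 CPM in SKG. The SKG libraries sat close together, and even the lowest lay well above the highest BALB/c library. The means were 105 ± 21.5 CPM in BALB/c and 196 ± 10.2 CPM in SKG (SD, n = 3 libraries each), and the fitted level was 1.87-fold higher in SKG. On the log2 scale this was 0.90 with a standard error of 0.20 and a 95% interval from 0.41 to 1.39 (edgeR adjusted p = 0.619). DESeq2 called *Stat5a*, with adjusted p of 0.0232 without and 0.0290 with shrinkage of the fold change.

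*Stat5b*, its paralog, was the more abundant of the pair. It was at 436, 729 and 539 CPM in BALB/c and at 758, 919 and 648 CPM in SKG. The genotypes overlapped, since BALB/c replicate 2 exceeded SKG replicate 3. Its log2 fold change was 0.45 (standard error 0.23, 95% interval -0.10 to 1.00, edgeR adjusted p = 0.953). Scaled to the exonic length of the genes, *Stat5a* made up 0.143, 0.125 and 0.169 of the *Stat5b* level in BALB/c and 0.211, 0.166 and 0.223 of it in SKG. These ratios overlapped by a narrow margin, as SKG replicate 2 lay just below BALB/c replicate 3.

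*Stat3* and *Stat6* both had SKG libraries above all BALB/c libraries, by smaller margins. *Stat3*, which responds to IL-6, IL-10 and IL-21, was at 241, 371 and 350 CPM in BALB/c and at 408, 473 and 388 CPM in SKG. *Stat6*, the mediator of IL-4 signals on chromosome 10 from 127642986 to 127660957, was at 381, 319 and 267 CPM in BALB/c and at 406, 443 and 388 CPM in SKG. In both genes the gap between the groups was small beside the range within BALB/c. Log2 fold changes were 0.40 for *Stat3* (standard error 0.20, 95% interval -0.08 to 0.88) and 0.35 for *Stat6* (standard error 0.17, 95% interval -0.05 to 0.76), each with an edgeR adjusted p of 0.952.

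*Socs1*, an inhibitor that binds JAK kinases directly, was the only one of the 4 feedback genes of the list with many reads in every library, from 2482 to 4033. Its gene spans bases 10782240 to 10785536 of chromosome 16. It was at 86.9, 66.9 and 89.3 CPM in BALB/c and at 86.9, 101 and 99.4 CPM in SKG, with SKG replicate 1 inside the BALB/c range. Its log2 fold change was 0.24 (standard error 0.22, 95% interval -0.28 to 0.76, edgeR adjusted p = 0.991). The ratio of *Jak1* to *Socs1*, per length, was 3.14, 3.66 and 2.94 in BALB/c and 5.13, 3.23 and 4.04 in SKG, which overlapped.

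The other feedback genes were near 0. *Cish*, a STAT5-induced inhibitor on chromosome 9 from 107296026 to 107302784, was read 0, 0 and 51 times in the BALB/c replicates and 139, 0 and 0 times in the SKG replicates. The libraries with reads, BALB/c replicate 3 and SKG replicate 1, were also those with the most genes detected, 14339 and 14791 with at least 10 reads. *Socs2*, a regulator of growth hormone signaling on chromosome 10 from 95385362 to 95417180, was read 0, 3 and 1 times in BALB/c and 53, 0 and 3 times in SKG, so that most of its reads also came from SKG replicate 1. *Socs3*, an inhibitor of IL-6 family signals on chromosome 11 from 117966079 to 117970047, was read 727, 1 and 2 times in BALB/c and 28, 0 and 1 times in SKG. Its reads thus came almost wholly from BALB/c replicate 1, the library with the highest sum of double-positive thymocyte markers (467 CPM). It also had the highest erythroid sum, 69.7 CPM with 1428 reads of *Hbb-bs* against 0 to 22 elsewhere, and the highest myeloid sum in BALB/c, 64.8 CPM, below the 164 CPM of SKG replicate 3. The part of these markers was not tested. A count of 0 in a library allows a level of up to 0.0664 to 0.0830 CPM (3 reads), which covers counting error only. With most libraries at or under that floor, no fold change is given for these 3 genes.

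Promoter windows of *Cish* and *Socs3* are shown because, among the windows of the members in the RefSeq table of GRCm38.p6, these genes held the palindromic STAT motif TTCNNNGAA. Each window runs from 250 bases before to 50 after the start site, and capitals mark the motif. *Cish* lies on the plus strand at chr9:107296409-107296708 with matches that start at positions 1 and 12 after the start site, and *Socs3* on the minus strand at chr11:117969317-117969616 with a match that starts at position -154.
*Cish*: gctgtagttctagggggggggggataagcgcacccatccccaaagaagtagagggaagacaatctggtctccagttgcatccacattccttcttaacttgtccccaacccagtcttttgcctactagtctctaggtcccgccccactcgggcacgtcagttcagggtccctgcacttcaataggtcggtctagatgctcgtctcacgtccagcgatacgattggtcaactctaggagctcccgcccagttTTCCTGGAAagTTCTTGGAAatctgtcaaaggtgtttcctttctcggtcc
*Socs3*: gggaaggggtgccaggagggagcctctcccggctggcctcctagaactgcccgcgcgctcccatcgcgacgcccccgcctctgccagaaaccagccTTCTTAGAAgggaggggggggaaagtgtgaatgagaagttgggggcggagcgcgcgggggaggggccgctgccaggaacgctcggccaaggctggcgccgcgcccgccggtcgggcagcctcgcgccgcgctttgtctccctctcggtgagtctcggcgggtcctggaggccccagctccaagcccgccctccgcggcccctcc
The motif occurred in 8.3% of all 32851 windows of this length and was absent from the windows of *Jak1*, *Jak3*, *Stat3*, *Stat5a*, *Stat5b*, *Stat6* and *Socs1*. *Socs2* was not analyzed here. A match describes the letters of the window and not the binding of a factor. *Cish* and *Socs3*, which hold it, were at 0 to 3 reads in 4 of 6 libraries.

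Levels of different genes were compared as CPM per kilobase of exon. In BALB/c the order was *Stat5b* (102.5 ± 26.9), *Jak1* (89.4 ± 4.76), *Stat6* (73.3 ± 12.9), *Stat3* (33.7 ± 7.37), *Jak3* (32.1 ± 2.23), *Socs1* (27.9 ± 4.23) and *Stat5a* (14.7 ± 3.01), in CPM per kilobase (mean ± SD, n = 3). Libraries of neighbors in this order overlapped, except between *Stat6* and *Stat3* and between *Socs1* and *Stat5a*. In SKG the order of the means was the same, from *Stat5b* (139.9 ± 24.6) and *Jak1* (134.7 ± 20.6) down to *Jak3* (33.3 ± 4.53), *Socs1* (33.0 ± 2.68) and *Stat5a* (27.5 ± 1.42). There the libraries of *Stat5b* and *Jak1* overlapped, as did those of *Jak3* and *Socs1*, and the other neighbors did not. The lengths used are those of all annotated exons of a gene, so a gene of which only short isoforms are made appears lower than it is.

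In the JAK and STAT families, the members carried most of the signal per length in every library. The SOCS members did so except in BALB/c replicate 2, where *Socs1* made up 48.1% and *Socs2*, *Socs3* and *Cish* little. *Jak1* made up 59.6% ± 4.45 of the 4 JAK genes in BALB/c and 62.3% ± 7.73 in SKG (SD, n = 3), and *Jak3* 21.3% ± 1.21 and 15.5% ± 2.86. Of the 6 STAT genes described here, *Stat5b* and *Stat6* were the main parts in both genotypes, at 43.6% ± 4.83 and 32.1% ± 8.88 in BALB/c and at 44.0% ± 2.83 and 29.7% ± 1.51 in SKG. *Stat5a* made up 5.51%, 6.04% and 7.45% in BALB/c and 9.12%, 7.82% and 9.29% in SKG. Of the 8 SOCS genes, *Socs1* made up 53.5% ± 4.80 in BALB/c and 56.4% ± 9.92 in SKG, followed by *Socs5*.

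**Figure D2:**
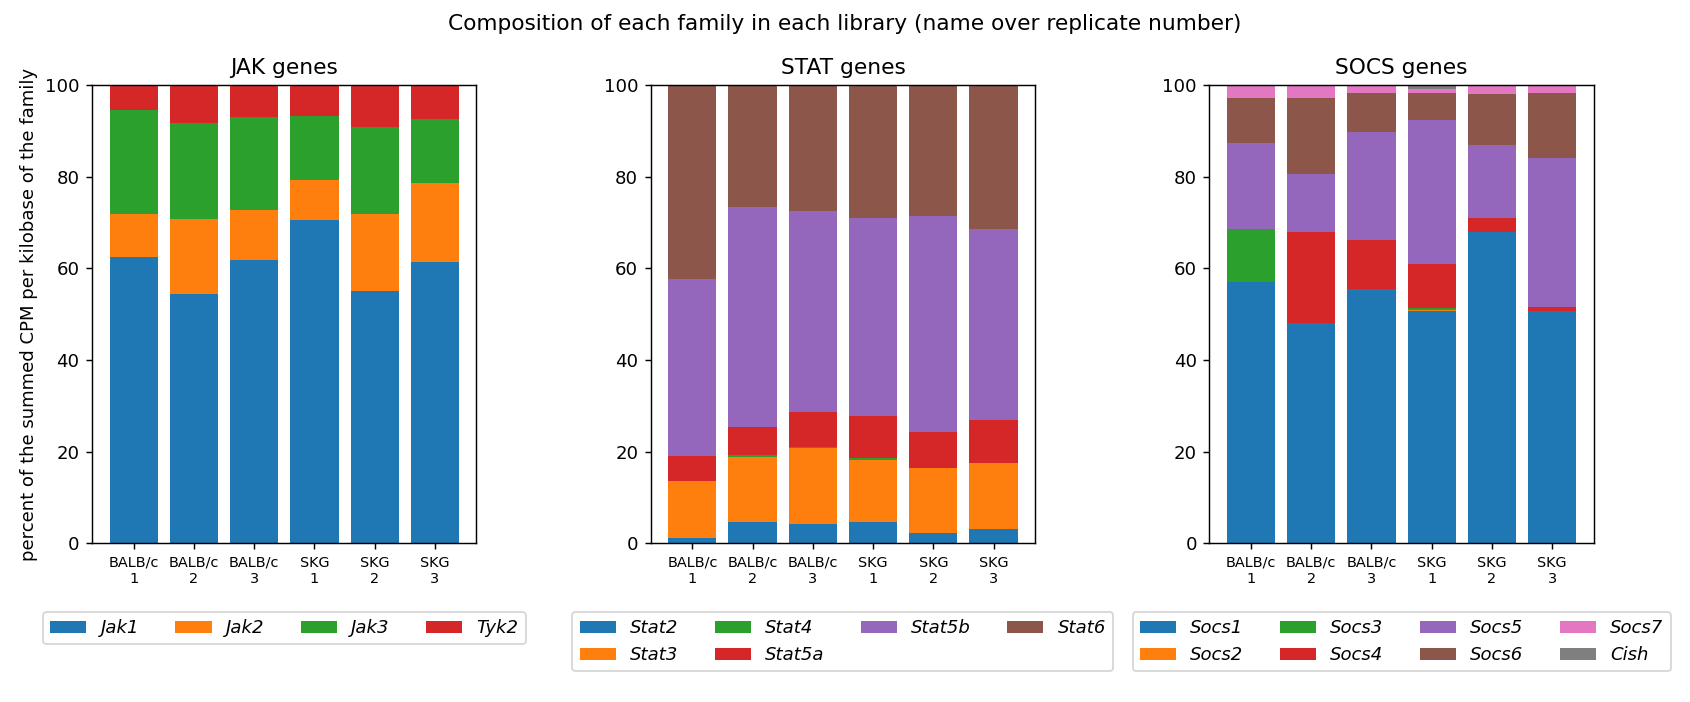
Share of each gene in the summed CPM per kilobase of its family (percent, linear axis from 0) in each of the 6 libraries, for the JAK, STAT and SOCS genes described here, including *Cish*. *Jak1* takes 54.5% to 70.5% of the JAK signal, *Stat5b* and *Stat6* most of the STAT signal and *Socs1* 48.1% to 67.9% of the SOCS signal.

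A further 8 JAK, STAT and SOCS genes were described and all were tested. Their fold changes had no common direction, with 5 of 8 higher in SKG and a median log2 fold change of 0.24. *Tyk2*, a JAK of interferon and IL-12 receptors, was at 56.4, 88.5 and 70.0 CPM in BALB/c and at 101, 130 and 116 CPM in SKG, with no overlap. Its log2 fold change was 0.69 (standard error 0.25, edgeR adjusted p = 0.834). *Jak2* (0.75), *Socs5* (0.75), *Stat2* (0.41) and *Socs6* (0.08) had log2 fold changes above 0 and *Socs4* (-0.96), *Stat4* (-0.50) and *Socs7* (-0.45) below it, all with overlapping libraries and edgeR adjusted p of at least 0.952. *Stat4*, which serves IL-12, was read 36, 166 and 129 times in BALB/c and 233, 0 and 0 times in SKG, and *Socs4* ranged from 5 to 2427 reads within BALB/c.

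**Figure D3:**
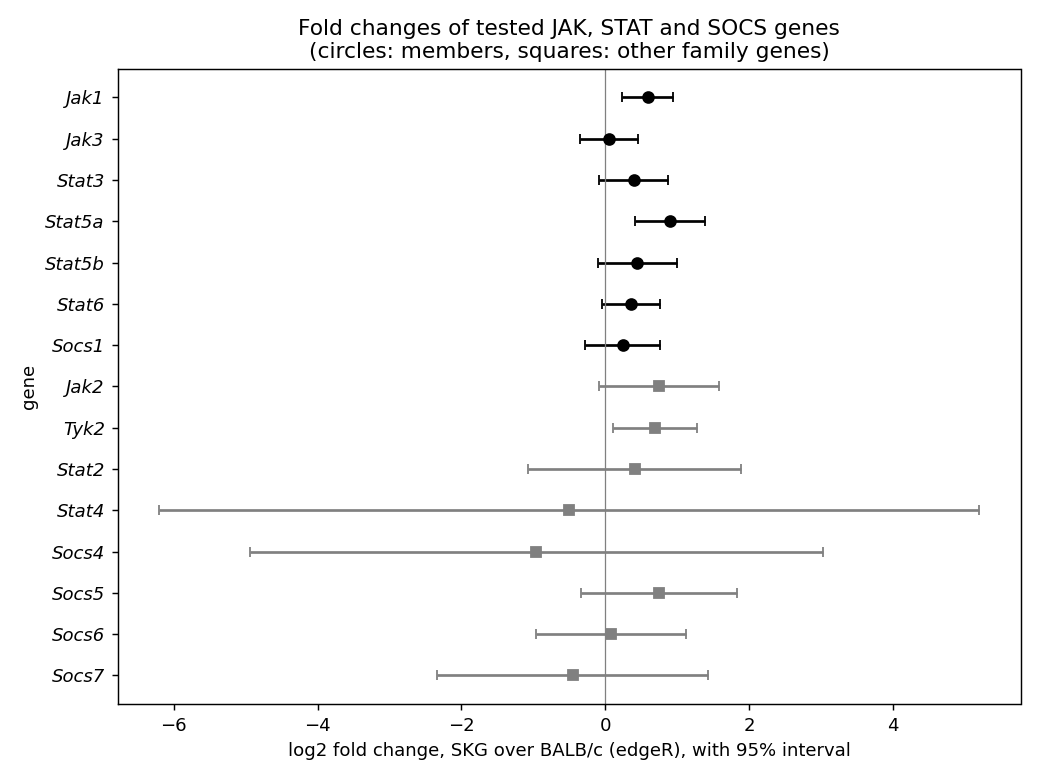
Log2 fold change of SKG over BALB/c from edgeR (points) with its 95% interval (bars) for 15 tested JAK, STAT and SOCS genes, members as circles and other family genes as squares. Intervals lie wholly above 0 for *Jak1*, *Stat5a* and *Tyk2*, and they are widest for *Stat4* and *Socs4*.

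Further genes of the pathway were read from lists of receptors, cytokines, other inhibitors and cytokine-responsive genes, of which edgeR called 0. Of 21 cytokine receptor chains 17 were tested, 8 with the higher level in SKG and 9 with the lower, with a median log2 fold change of -0.01. *Il2rg*, the common gamma chain to which JAK3 binds, was the most abundant, at 557 ± 73.3 CPM in BALB/c and 479 ± 31.3 CPM in SKG (SD, n = 3), with overlap. *Ifngr1*, a chain of the interferon gamma receptor, was at 75.6, 119 and 73.1 CPM in BALB/c and 174, 163 and 149 CPM in SKG, without overlap (log2 fold change 0.86, standard error 0.24, edgeR adjusted p = 0.734). *Il10ra*, the IL-10 receptor chain that engages JAK1 and STAT3, was read 2, 764 and 522 times in BALB/c and 2771, 2486 and 4235 times in SKG (edgeR adjusted p = 0.952). *Il21r*, the IL-21 receptor, went the other way without overlap, at 386 ± 44.6 CPM in BALB/c and 317 ± 29.3 CPM in SKG (SD, n = 3; log2 fold change -0.28, edgeR adjusted p = 0.959). Receptors without overlap were thus *Ifngr1* and *Il10ra*, with the higher level in SKG, and *Il21r*, with the lower. Of 12 cytokines only *Il4*, *Osm* and *Il21* were tested, and the most abundant, *Il4*, was at 6.09 ± 1.63 CPM in BALB/c and 5.17 ± 4.57 CPM in SKG (SD, n = 3).

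All 10 of the other inhibitors were tested, 4 higher in SKG, with a median log2 fold change of -0.05. *Ptpn11*, the phosphatase SHP-2, was at 10.8, 34.8 and 44.4 CPM in BALB/c and at 83.4, 98.3 and 88.7 CPM in SKG. The SKG libraries were close together and all above BALB/c, with a log2 fold change of 1.59 (standard error 0.52, edgeR adjusted p = 0.833). *Sh2b3* (0.71) and *Pias2* (0.43) were also without overlap and higher in SKG by these log2 fold changes, and *Pias4* (-0.85) was lower. *Ptprc*, the phosphatase CD45 and the most abundant of the list, was nearly equal at 1811 ± 26.0 CPM in BALB/c and 1845 ± 172 CPM in SKG (SD, n = 3).

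Of 12 cytokine-responsive genes 11 were tested, 7 higher in SKG, with a median log2 fold change of 0.10. *Pim2*, a survival kinase induced by cytokines through STAT5, was at 81.4, 92.9 and 41.6 CPM in BALB/c and at 22.2, 24.9 and 26.5 CPM in SKG. It was thus lower in all SKG libraries, opposite in direction to *Stat5a*, with a log2 fold change of -1.55 (standard error 0.39, edgeR adjusted p = 0.686). DESeq2 called *Pim2*, with adjusted p of 0.0176 without and 0.0228 with shrinkage. *Pim1*, its relative, was read 1, 197 and 304 times in BALB/c and 714, 354 and 529 times in SKG, higher in all SKG libraries (edgeR adjusted p = 0.991). *Mcl1*, an antiapoptotic BCL2 relative, was at 317 ± 48.4 CPM in BALB/c and 429 ± 55.1 CPM in SKG (SD, n = 3) without overlap (log2 fold change 0.44, edgeR adjusted p = 0.894). *Ccnd2*, a D-type cyclin and the most abundant of this list, was at 754 ± 186 CPM and 799 ± 127 CPM (SD, n = 3) with overlap. Genes without overlap lay on both sides of 0 in the receptor, inhibitor and cytokine-responsive lists. Among the members, and for *Tyk2* among the further family genes, they lay above 0, and among the cytokines there were 0 such genes.

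**Figure D4:**
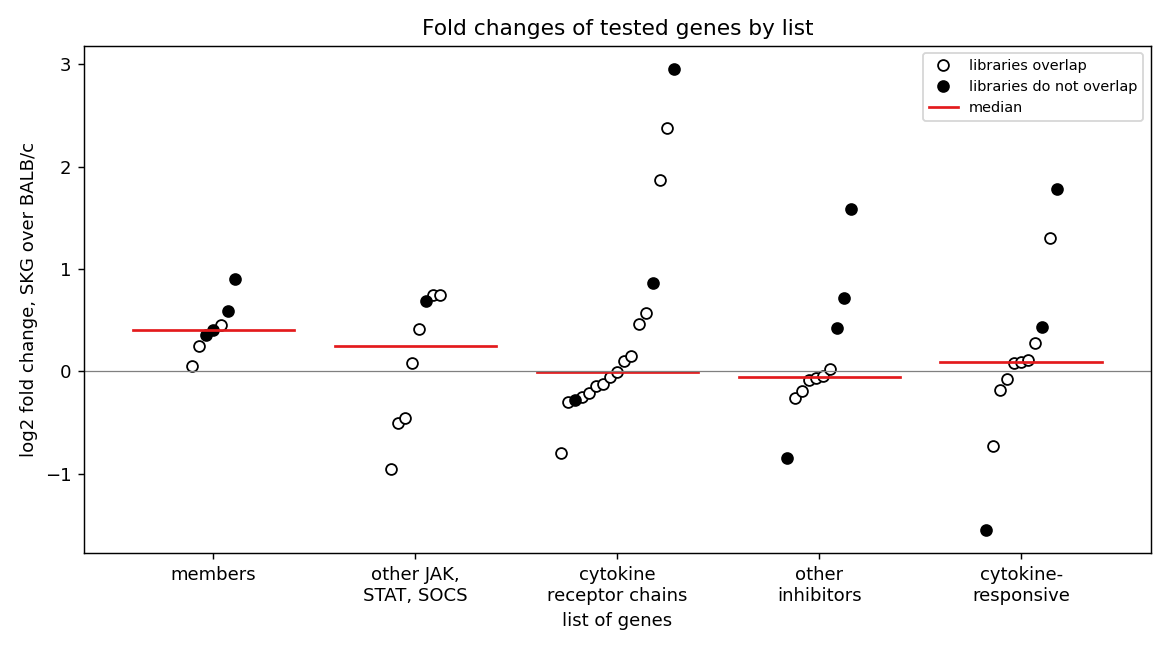
Log2 fold change of SKG over BALB/c for every tested gene of 5 lists (points; filled where the libraries of the genotypes do not overlap), with the median of the list as a line. The median is 0.40 for the members 0.24 for the further family genes and between -0.05 and 0.10 for the other lists.

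The direction of the tested members was followed under 17 other settings per gene. *Stat5a* stayed between 0.75 and 0.99 on the log2 scale, lowest without BALB/c replicate 1, and *Jak1* between 0.48 and 0.71, lowest without SKG replicate 1. *Stat3*, *Stat5b*, *Stat6* and *Socs1* stayed above 0 in each setting, and *Jak3* did so except without SKG replicate 2. Relative to their size, the smaller fold changes were moved more by single libraries. *Stat3* went from 0.40 to 0.24 and *Stat5b* from 0.45 to 0.30 without BALB/c replicate 1, *Socs1* from 0.24 to 0.11 without BALB/c replicate 2, and *Stat6* from 0.35 to 0.24 without BALB/c replicate 3.

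**Figure D5:**
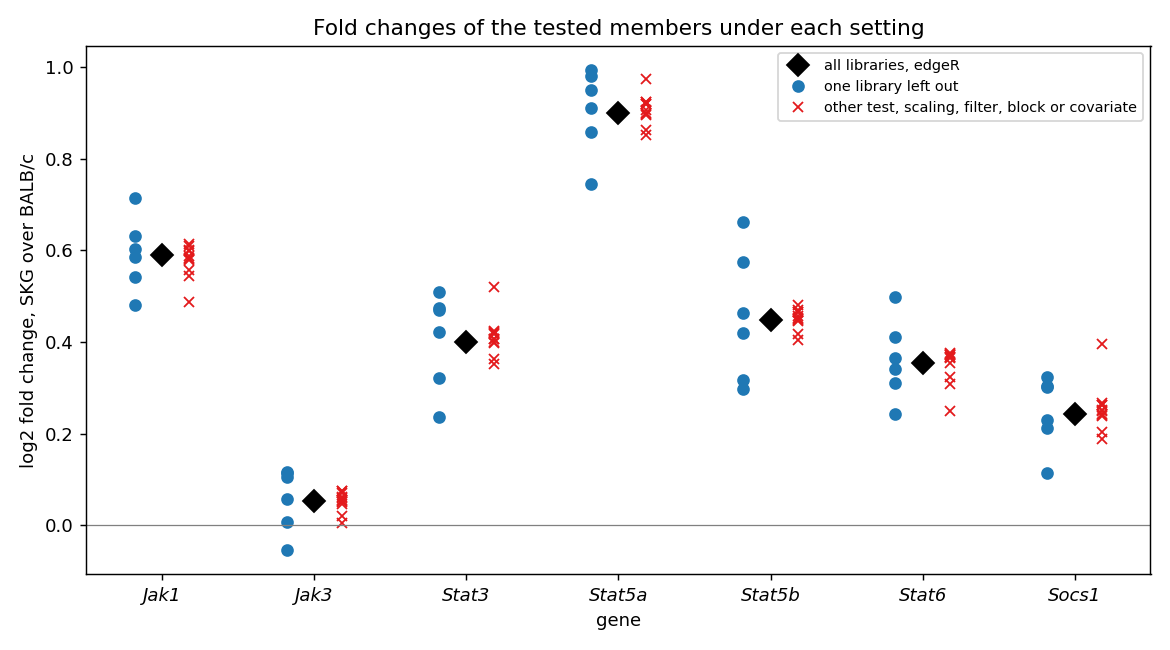
Log2 fold change of SKG over BALB/c for the 7 tested members with all libraries in edgeR (diamonds), with 1 library left out (circles) and under other tests, scalings, filters, blocks or a covariate (crosses). *Stat5a* lies between 0.75 and 0.99, and 1 value of *Jak3* is below 0, at -0.055.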

How the data were processed

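Counts per gene of 6 libraries were analyzed. The counts deposited by the authors are raw whole numbers per gene. Per the methods and the submitters' processing notes, reads of 50 nt were aligned with HISAT2 2.1.0 to GRCm38 and reads on exons were counted without strand by featureCounts (Subread 1.4.4, Ensembl annotation, mapping quality of at least 10). The labels and the methods name different amplification kits, and which was used could not be settled. A second deposited table, the authors' DESeq2 1.14.1 comparison (mean counts, fold changes, Wald statistics and p-values), was not used. The SKG samples are titled SGK, and their genotype was taken from the labels. Genes were matched by symbol to GENCODE M21 for positions and lengths.

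In R 4.3.3, genes were filtered with filterByExpr, scaled with TMM and tested with edgeR 4.0.16 (quasi-likelihood F test, 12312 genes, Benjamini-Hochberg adjustment, with the thresholds of the study, FDR under 0.1 and fold change of at least 1.5). Each standard error is the log2 fold change, without its sign, over the root of F. DESeq2 1.42.0, limma 3.58.1 (voom), other scalings, filters, thresholds, a covariate, both numberings (titles and library descriptions) as a block and each library left out were alternatives. The fit was tested on simulated data. Ratios between genes were chosen after their values had been seen. The members and lists were chosen with earlier results of these data known. Named genes are the 10 members, *Zap70*, 8 other JAK, STAT and SOCS genes and, of each further list, genes at an unadjusted p under 0.05, genes without overlap and the most abundant gene. Of the JAK, STAT and SOCS families 1 further gene is not reported here, and the counts, median and shares of these families leave it out. PCR copies cannot be told from molecules in these counts. Residuals of libraries with the same number correlated between -0.145 and 0.00289, so they were not paired.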

Additional observations from a re-analysis of the deposited data

How the results depend on the processing

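EdgeR's quasi-likelihood test called 0 genes and 0 members (671 genes and 2 members, *Jak1* and *Stat5a*, at an unadjusted p under 0.05). DESeq2 called 370 genes and 2 members (*Jak1* and *Stat5a*) without shrinkage and 229 genes and 1 member (*Stat5a*) with it. With all genes kept edgeR called 2 genes, and with at least 10 counts in every library 1, with 0 members in both. With limma-voom, RLE factors, library size alone, upper quartile factors, a covariate for detected genes, a stricter FDR (0.05), calls without regard to fold change and each library left out, the counts stayed at 0 (range 0 to 0). With either replicate number as a block they were 0 as well. Residuals of samples with the same number did not deviate together, which cannot show whether those samples were prepared together. The library-number block compares only 2 libraries of each genotype, so its count of 0 says little. Of 119 member values under alternatives, 115 kept direction and side of the threshold, 3 were called in addition and 1 reversed, *Jak3* without SKG replicate 2 (its log2 fold change was -0.055, and from -0.055 to 0.12 with each library left out). The cause was not tested. With the library-number block *Stat5a* was at 0.97 and *Jak1* at 0.49 on the log2 scale. The common biological coefficient of variation between libraries was 91.8%, with 3 libraries a group. It is a single value fitted to all genes tested and not the spread of the members. Among tested genes with a mean of at least 50 CPM, the median coefficient of variation was 22.1% in BALB/c and 22.5% in SKG.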

Other observations

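Reads of single libraries stood out in a few genes of the pathway, which are named here after their values were seen. *Ifng*, the cytokine that signals through *Ifngr1*, had 312 reads in BALB/c replicate 1 and 0 reads in each of the other 5 libraries. The same library held 727 of the 759 *Socs3* reads. *Lif*, a cytokine that signals through *Il6st*, had 46 reads in SKG replicate 3, 3 reads in SKG replicate 1 and 0 reads elsewhere. *Il2ra*, the high-affinity chain of the IL-2 receptor, was read 434, 1 and 16 times in BALB/c and 209, 3 and 1254 times in SKG, so that libraries of one genotype differed more than the genotypes did (log2 fold change 1.87, edgeR adjusted p = 0.991).

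The spread of the members between libraries differed by gene and genotype. In SKG, *Stat5a* had a coefficient of variation of 5.17%, and 95.6% of the 4744 tested genes with a mean of at least 50 CPM had a larger one. For *Jak1* in BALB/c that share was 95.4%, and for *Stat6* in SKG 92.7%. It was 40.2% for *Stat5b*, 50.6% for *Stat3* and 54.8% for *Stat5a* in BALB/c, near the middle of these 4744 genes. The 4744 genes were not matched to the level of each member. *Jak1* and *Stat5b* were also among the most abundant genes by CPM, above 99.0% and 98.8% of the genes tested.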
